A study of Mus musculus with 6 samples.

Results

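Mechanosensitive ion channels are membrane proteins that let ions through when the membrane or the structures attached to it are deformed. The 10 genes described here, Piezo1, Piezo2, Trpv2, Trpv4, Trpc1, Trpm7, Tmem63a, Tmem63b, Kcnk2 and Pkd2, were chosen by gene symbol from the 22375 rows of the deposited table, and all 10 were found, each in 1 row. They were compared between 2 groups of C2C12 cells, a line of mouse myoblasts, the muscle precursor cells that fuse into fibers. The CON group was not stretched (n = 3 libraries), and the 4H group was stretched cyclically at 15% elongation for 4 h (n = 3 libraries), on elastic plates coated with poly-lysine. 4H replicates 1, 2 and 3 carry the titles 4H1, 4H3 and 4H4. The labels do not say whether the libraries of a group came from separate cultures, so the p values measure the spread between these libraries, which may be technical.

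PIEZO proteins are large trimeric cation channels that open with membrane tension and admit calcium. In myoblasts PIEZO1 is known to take part in fusion and in the shaping of myotubes. TMEM63 proteins are the mammalian relatives of the osmotically sensitive OSCA channels of plants. TRPV2, TRPV4, TRPC1 and TRPM7 belong to the transient receptor potential (TRP) family of cation channels, and polycystin 2, the product of Pkd2, is a related cation channel of the primary cilium and the endoplasmic reticulum. KCNK2, also called TREK-1, is a potassium channel with paired pore domains, and its opening by membrane tension hyperpolarizes the cell. For some of the TRP members, whether stretch opens the channel directly is debated.

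Expression was given in FPKM, fragments per kilobase of transcript and per library size, so levels can be compared between genes. The test was limma's moderated comparison of log2(FPKM + 0.5), run on 11593 genes averaging 0.5 FPKM or more, with Benjamini-Hochberg adjustment of p. FPKM values summed to between 395790 and 397260 in the CON libraries and to between 385146 and 387516 in the 4H libraries. The number of fragments sequenced is not held by FPKM. Ratios of genes below 0.1 FPKM were searched for a common value, but only within 0.1 of equality on the natural log scale. In that range they placed the 15 pairs of libraries within 1.58% of equal depth, and a difference beyond the range could not have been found. The myoblast label was checked against markers. Des, an intermediate filament of muscle, averaged 71.6 ± 1.07 FPKM without stretch and 88.8 ± 2.40 FPKM with it (mean ± SD of 3 libraries, as throughout). Myod1, a myogenic transcription factor, rose from 5.13 ± 0.57 to 18.2 ± 0.74 FPKM (limma, adjusted p = 1.56e-06), and Myf5, a related factor, fell from 15.8 ± 0.85 to 9.82 ± 1.13 FPKM (adjusted p = 0.000347). Of 8 myotube markers, Mymk and Acta1 could be tested and both rose, while Myog, a transcription factor of differentiation, was too low to be tested and lay at 0.281, 0.136 and 0.235 FPKM in the CON libraries and at 0.0794, 0 and 0 FPKM after stretch. The 8 summed to between 1.99 and 2.58 FPKM in the CON libraries and to between 3.56 and 4.34 FPKM in the 4H libraries. Of 9 endothelial, immune and epithelial markers, Ptprc, Adgre1 and Epcam were listed at 0 in all 6 libraries, and 5 others did not exceed the 0.292 FPKM of Krt5 in any library. The remaining marker was Cd68, a lysosomal protein used as a macrophage marker, which rose from 7.57 ± 0.89 to 16.4 ± 1.29 FPKM, so that the summed level of the 9 markers was between 6.96 and 8.60 FPKM in the CON libraries and between 15.7 and 18.3 FPKM in the 4H libraries. The part of other cells in the results below was not tested, and in bulk RNA a change in the number of cells of a type and a change in RNA per cell cannot be told apart.

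Of the 10 channel genes, 9 could be tested and all 9 were called (adjusted p no higher than 0.05 in limma), as were 46.7% of all genes tested. The call of Trpc1 was lost in 10 of 15 alternative fits, and the other 8 were called in all of them. Higher in the 4H group were 6, Piezo2, Kcnk2, Trpv2, Tmem63a, Tmem63b and Trpc1 (22.6% of all genes tested were higher), and lower were 3, Piezo1, Pkd2 and Trpm7 (24.1% of all genes tested were lower). Trpv4, with a mean of 0.390 FPKM, was below the filter and was not tested. On the log2(FPKM + 0.5) scale none of the 9 reached the study's cutoff for differential expression, which asks in addition for a log2 fold change of 1 or more in size and was reached by 3.88% of all genes tested. Piezo2 reached it with a pseudocount of 0.1 (1.15) and with TPM (1.09), where larger values make the same pseudocount weigh less. All 9 had an unadjusted p under 0.05 in limma. The median absolute log2 fold change was 0.34 for the 9 channel genes and 0.19 for all genes tested. In all 9 genes the values of the groups did not overlap, which held for 56.7% of all genes tested, and the two-sided exact permutation test gave p = 0.1 for each, the smallest that 3 libraries against 3 allow.

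**Figure D1:**
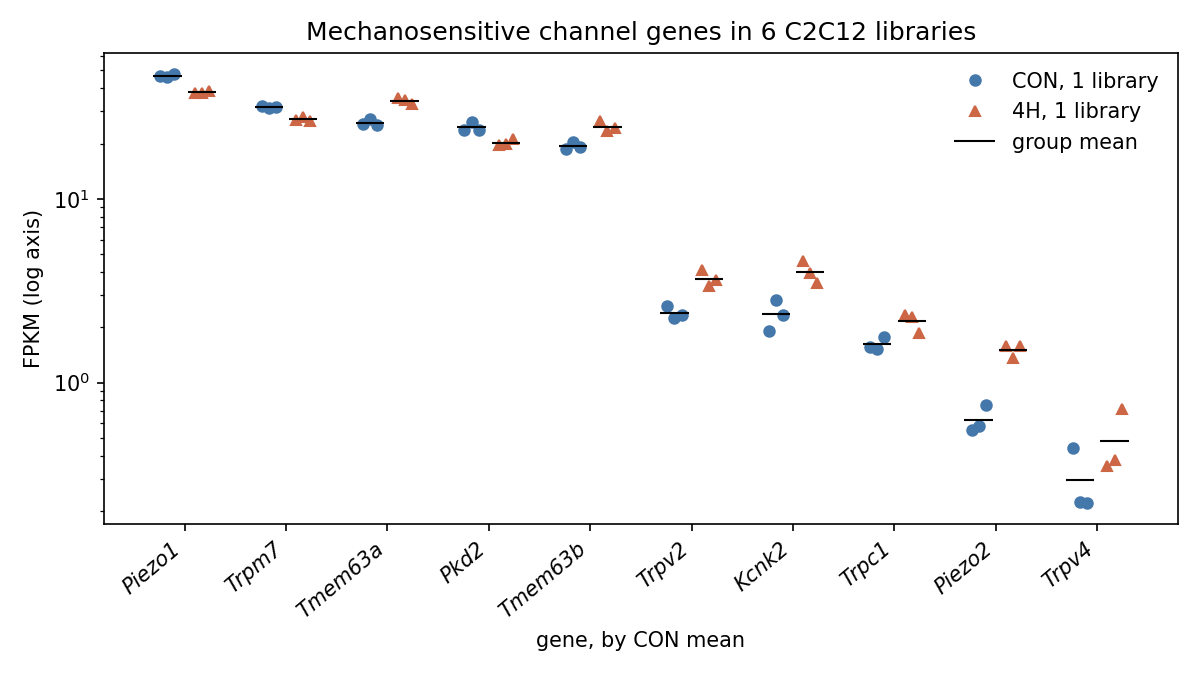
FPKM (log axis) of the 10 channel genes in the 3 CON libraries (circles) and the 3 4H libraries (triangles), ordered by the CON mean, with the group mean as a bar. In 9 genes the groups do not overlap, and in Trpv4 they do.

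In unstretched cells the 10 genes fell into an abundant and a scarce set. Piezo1, Trpm7, Tmem63a, Pkd2 and Tmem63b lay between 18.6 and 47.5 FPKM in every CON library, while Trpv2, Kcnk2, Trpc1, Piezo2 and Trpv4 lay between 0.222 and 2.81 FPKM. No gene lay between these sets in either group. All genes of the scarce set had higher means in the 4H group, whereas the abundant set held the 3 genes that fell and 2 that rose. At the levels of the scarce set, means of 0.39 to 3.18 FPKM over all libraries, 57.9% of the 2272 genes in the table had a higher mean in the 4H group, against 43.8% of the 1881 genes at the levels of the abundant set, so low genes in general leaned the same way. The 10 genes summed to 155.5 ± 2.33 FPKM in CON and 156.0 ± 2.60 FPKM in 4H cells, a ratio of 1.00, while the makeup of this sum differed. The scarce set went from 7.30 ± 0.19 to 11.8 ± 0.96 FPKM in sum, or from 4.69% to 7.59% of the total of the 10. The share of Piezo1 went from 30.1% ± 0.89 to 24.3% ± 0.61, and that of Tmem63a from 16.7% ± 0.45 to 21.9% ± 0.55.

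Since 6 of the genes rose and 3 fell, their promoters were searched for motifs that genes of 1 direction share. RefSeq sequences (build GRCm38.p6) of 250 bases before to 50 bases after each start were at hand for 9 of the 10 genes, all but Piezo2, with 14 promoters in all. The search covered both strands and 4 motifs of factors linked to mechanical or calcium signals, chosen with the results known. A CArG box, the site of SRF, is held by 1.63% of all 32851 promoters in the RefSeq table, and by 1 of these 14, that of Tmem63a, where it begins 110 bases before the RefSeq start. By the gene coordinates given below, Tmem63a begins further upstream, so that the box lies inside the gene. The AP-1 motif TGANTCA (7.81% of all promoters) was found in 1, an inner start of Kcnk2, 126 bases before the start. The TEAD motif GGAATG (14.7%) was found in 3, the outermost start of Kcnk2 (89 bases before), Pkd2 (43 bases before) and 1 start of Trpv2. The CREB motif TGACG (20.8%) was found in those of Trpc1 and Trpm7. No motif was shared by all searched genes that rose or by all that fell, and the TEAD and CREB motifs each occurred in genes of both directions. A match in these windows is a string of letters and no measured binding. The promoters of Tmem63a and Kcnk2, which rose, and of Pkd2 and Piezo1, which fell, follow 5′ to 3′ on the strand of the gene, with the matched letters in capitals and none for Piezo1. In the outermost promoter of Kcnk2 the capitals read CATTCC, the TEAD motif on the other strand.
Tmem63a, chr1:180942268-180942567, plus strand, CArG box: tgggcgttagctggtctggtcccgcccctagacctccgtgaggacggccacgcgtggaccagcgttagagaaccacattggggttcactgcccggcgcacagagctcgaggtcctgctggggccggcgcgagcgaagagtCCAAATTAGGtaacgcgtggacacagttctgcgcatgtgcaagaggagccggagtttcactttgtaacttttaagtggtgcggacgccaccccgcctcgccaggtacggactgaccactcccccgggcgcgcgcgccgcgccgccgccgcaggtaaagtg
Kcnk2, outermost start, chr1:189402224-189402523, minus strand, TEAD motif: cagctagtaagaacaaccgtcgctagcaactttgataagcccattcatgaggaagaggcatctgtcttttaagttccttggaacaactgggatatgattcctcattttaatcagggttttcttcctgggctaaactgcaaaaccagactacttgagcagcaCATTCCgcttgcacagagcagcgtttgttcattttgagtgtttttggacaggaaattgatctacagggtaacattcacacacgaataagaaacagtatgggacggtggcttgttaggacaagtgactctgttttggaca
Kcnk2, inner start, chr1:189344143-189344442, minus strand, AP-1 motif: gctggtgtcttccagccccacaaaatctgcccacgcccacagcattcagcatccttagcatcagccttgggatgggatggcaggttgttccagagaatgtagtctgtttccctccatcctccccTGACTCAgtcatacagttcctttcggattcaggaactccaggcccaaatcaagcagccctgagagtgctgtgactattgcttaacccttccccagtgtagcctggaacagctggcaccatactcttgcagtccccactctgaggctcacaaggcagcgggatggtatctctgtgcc
Pkd2, chr5:104459207-104459506, plus strand, TEAD motif: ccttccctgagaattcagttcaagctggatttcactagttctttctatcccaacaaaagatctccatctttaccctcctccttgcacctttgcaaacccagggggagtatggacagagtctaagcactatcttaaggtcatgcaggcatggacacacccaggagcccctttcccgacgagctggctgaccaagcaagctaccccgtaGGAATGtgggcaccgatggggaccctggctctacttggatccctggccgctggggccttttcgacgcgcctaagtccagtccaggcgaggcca
Piezo1, chr8:122551280-122551579, minus strand, no match: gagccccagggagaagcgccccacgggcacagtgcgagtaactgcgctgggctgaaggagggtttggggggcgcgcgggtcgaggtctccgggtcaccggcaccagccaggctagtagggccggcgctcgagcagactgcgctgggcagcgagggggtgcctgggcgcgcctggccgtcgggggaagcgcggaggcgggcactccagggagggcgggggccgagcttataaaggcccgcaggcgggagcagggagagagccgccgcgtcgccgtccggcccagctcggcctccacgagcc

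Piezo1 was the most abundant of the 10 in every library. It (ENSMUSG00000014444) lies on mm10 at chr8:122481698-122551329, on the minus strand, with 51 exons in its longest coding transcript. Piezo1 was at 46.8, 46.0 and 47.5 FPKM in CON replicates 1 to 3 and at 37.6, 37.8 and 38.4 FPKM in 4H replicates 1 to 3. All 4H libraries were below all CON libraries, by more than the spread within either group. The level in the 4H group was 0.811 times that of the CON group, with a log2 difference of -0.30 (SE 0.03, limma adjusted p = 0.000151). Of its 9935 exonic bases, 2441 are shared with Ctu2 on the other strand, and whether the counting used the strand is not given in the sources used here. Ctu2 itself was at 6.53 ± 0.30 and 6.73 ± 0.13 FPKM (adjusted p = 0.631).

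Piezo2 (ENSMUSG00000041482, chr18:63010213-63387183, minus strand), known for touch and for the sense of muscle length in sensory neurons, went the other way from a low level. Piezo2 was at 0.552, 0.578 and 0.755 FPKM in the CON libraries and at 1.58, 1.36 and 1.59 FPKM after stretch. The lowest 4H value was above the highest CON value. The ratio of mean FPKM was 2.41, the largest of the 10 genes, while on the log2(FPKM + 0.5) scale, which compresses differences at low levels, the difference was 0.84 (SE 0.13, limma adjusted p = 0.000983). The PIEZO genes thus changed in opposite directions. Piezo1 FPKM was 84.9, 79.6 and 62.9 times Piezo2 FPKM in the CON libraries and 23.8, 27.7 and 24.1 times in the 4H libraries. On the log2 scale with the pseudocount of 0.5, the 4H ratio differed from the CON ratio by -1.14 (two-sided exact permutation test, p = 0.1, the smallest possible, and 0.3 adjusted over 3 pairs of related genes), and by -1.46 with a pseudocount of 0.1 or -0.92 with a pseudocount of 1.

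The TMEM63 genes rose together. Tmem63a (ENSMUSG00000026519, chr1:180942344-180975112, plus strand) was at 25.6, 27.1 and 25.1 FPKM in the CON libraries and at 35.3, 34.4 and 32.8 FPKM after stretch, 1.32 times as high on average (log2 difference 0.39 ± 0.05 SE, limma adjusted p = 0.000241). Tmem63b (ENSMUSG00000036026, chr17:45660171-45686905, minus strand) was at 18.6, 20.3 and 19.2 FPKM in the CON libraries and at 26.5, 23.4 and 24.2 FPKM after stretch, 1.28 times as high (log2 difference 0.34 ± 0.06 SE, limma adjusted p = 0.00165). In both genes every 4H library was above every CON library. The ratio of Tmem63a to Tmem63b FPKM was 1.34 ± 0.04 in the CON group and 1.39 ± 0.07 in the 4H group, a difference of 0.05 on the log2 scale (two-sided exact permutation test, p = 0.5), within the spread between libraries. Tmem63b shares 394 exonic bases with Gm16172 and Mrpl14 on the other strand, and Mrpl14 rose from 28.1 ± 1.42 to 32.8 ± 1.02 FPKM (adjusted p = 0.00622). Tmem63a shares 157 with 2210411M09Rik. The third gene of the family, Tmem63c, was listed at 0 in all 6 libraries.

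Trpm7 and Pkd2, the other abundant genes, fell. Trpm7 (ENSMUSG00000027365, chr2:126791565-126876230, minus strand) encodes a channel for magnesium, calcium and zinc that carries its own kinase domain. It was at 32.1, 31.2 and 31.5 FPKM in the CON libraries and at 26.8, 28.0 and 26.5 FPKM after stretch, 0.858 times the CON level (log2 difference -0.22 ± 0.04 SE, limma adjusted p = 0.00217). Pkd2 (ENSMUSG00000034462, chr5:104459450-104505819, plus strand) was at 23.8, 26.2 and 23.7 FPKM in the CON libraries and at 19.7, 19.8 and 21.0 FPKM after stretch, 0.822 times the CON level (log2 difference -0.28 ± 0.05 SE, limma adjusted p = 0.00341). In neither gene did the groups overlap. Pkd1, the partner that forms a receptor and channel complex with polycystin 2, did not pass the test and was at 14.3 ± 0.35 and 15.1 ± 0.54 FPKM (a difference of 0.08 on the log2 scale, limma adjusted p = 0.236).

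With these opposite changes the order of the abundant genes changed. In the CON group the order was Piezo1, Trpm7, Tmem63a, Pkd2 and Tmem63b, in which only Tmem63a and Pkd2 overlapped as neighbors. In the 4H group it was Piezo1, Tmem63a, Trpm7, Tmem63b and Pkd2, in which only Trpm7 and Tmem63b overlapped. Tmem63a was at 0.797, 0.868 and 0.797 times Trpm7 in the CON libraries and at 1.32, 1.23 and 1.24 times in the 4H libraries. Tmem63b was at 0.781, 0.774 and 0.813 times Pkd2 in the CON libraries and at 1.34, 1.19 and 1.15 times in the 4H libraries. Each ratio crossed 1 in all libraries of a group, and since both values of a ratio come from the same library, a factor common to the library does not enter. These pairs were chosen after their values were seen, and the two-sided exact permutation test of their log2 ratio gave p = 0.1 for each, the smallest possible.

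**Figure D2:**
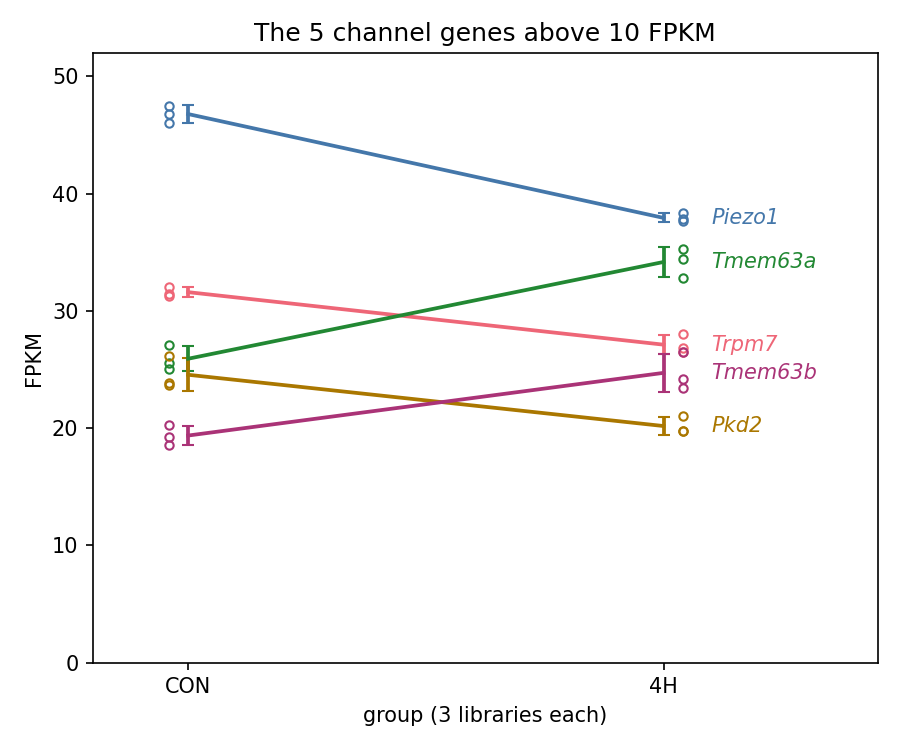
FPKM of the 5 channel genes above 10 FPKM in the CON and 4H groups, with open circles for single libraries and lines joining the group means with their SD (n = 3 libraries each). Tmem63a passed Trpm7 and Tmem63b passed Pkd2, while Piezo1 stayed the most abundant.

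Among the scarce genes, Kcnk2 (ENSMUSG00000037624, chr1:189207930-189402273, minus strand) had the second largest change on the log2 scale. Kcnk2 was at 1.91, 2.81 and 2.33 FPKM in the CON libraries and at 4.60, 3.95 and 3.48 FPKM after stretch. The groups did not overlap, although both spread widely. The ratio of mean FPKM was 1.71 and the log2 difference 0.67 (SE 0.14, limma adjusted p = 0.00531). It was the only 2-pore-domain potassium channel above 1 FPKM besides Kcnk5, which was the single one of 13 relatives that could be tested and did not pass. Its closest mechanosensitive relatives were lower, with Kcnk10 listed at 0 in all 6 libraries and Kcnk4 at a mean of 0.084 FPKM in CON and 0.236 FPKM in 4H cells. Kcnk2 shares 604 of its 4943 exonic bases with A430027H14Rik on the other strand.

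Trpv2 (ENSMUSG00000018507, chr11:62574486-62600515, plus strand) is a calcium-permeable channel known to answer to stretch in muscle cells. It was at 2.61, 2.25 and 2.35 FPKM in the CON libraries and at 4.09, 3.35 and 3.61 FPKM after stretch, with no overlap. The ratio of mean FPKM was 1.53 and the log2 difference 0.53 (SE 0.10, limma adjusted p = 0.00315). In 4H, Trpv2 and Kcnk2 exchanged places in the order of means, but they overlapped in both groups. Trpv4 (ENSMUSG00000014158, chr5:114622152-114658421, minus strand), an osmotically sensitive relative, was at 0.440, 0.224 and 0.222 FPKM in the CON libraries and at 0.353, 0.379 and 0.721 FPKM after stretch. The ratio of mean FPKM was 1.64, but the groups overlapped (two-sided exact permutation test, p = 0.3), and 1 library in each group stood above the other two. The ratio of Trpv2 to Trpv4 FPKM was 8.87 ± 2.54 in the CON group and 8.48 ± 3.31 in the 4H group. On the log2 scale with the pseudocount of 0.5 it differed by 0.23 the other way (two-sided exact permutation test, p = 0.4), by 0.04 with a pseudocount of 0.1, by 0.06 without 4H replicate 1 and by 0.40 without 4H replicate 3, so no direction can be given.

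Trpc1 (ENSMUSG00000032839, chr9:95705082-95750375, minus strand), a subunit of cation channels linked to calcium entry in muscle, was at 1.56, 1.52 and 1.78 FPKM in the CON libraries and at 2.33, 2.28 and 1.86 FPKM after stretch. The third library of each group came close to the other group. The ratio of mean FPKM was 1.33 and the log2 difference 0.32 (SE 0.11, limma adjusted p = 0.0480). This call was the least secure of the 9. It was lost without replicate 1 of the CON group (adjusted p = 0.1162), its replicate 2 (0.1225) or its replicate 3 (0.0568), and without replicate 1 of the 4H group (0.1365) or its replicate 2 (0.1285). Over the 10 of 15 alternatives in which it was lost the adjusted p lay between 0.0501 and 0.1436, and it was as low as 0.0261 in the others. The other 8 genes kept their direction and an adjusted p of at most 0.05 under each of the 15 alternatives.

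**Figure D3:**
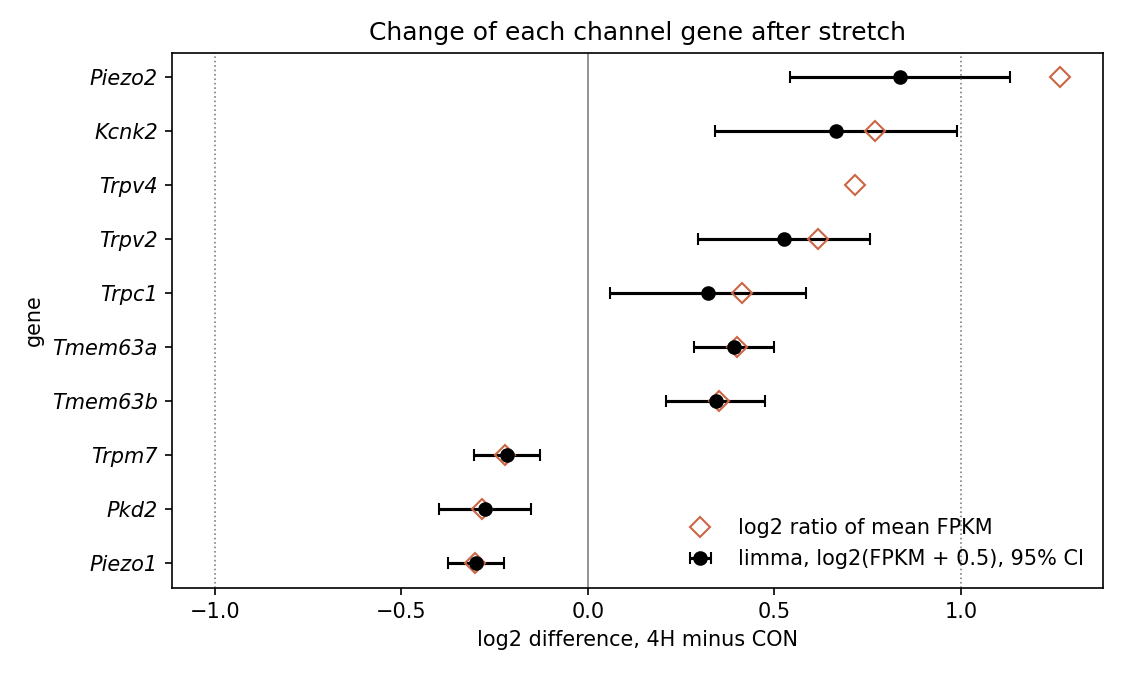
Log2 difference between the 4H and CON groups for each channel gene, as the limma estimate with its 95% confidence interval (filled circles) and as the log2 ratio of mean FPKM (open diamonds), with dotted lines at the study's threshold of 1. The 9 intervals stay clear of 0, and the 2 measures part most for Piezo2, at 0.84 and 1.27.

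The genes around the channels were followed in 6 lists of 86 genes. Of these, 42 could be tested and 23 passed at an adjusted p of at most 0.05, 15 higher and 8 lower in the 4H group, or 54.8% against 46.7% of all genes tested. No gene of these lists reached the cutoff for differential expression in limma, while 24 had an unadjusted p under 0.05. Their median absolute log2 fold change was 0.16.

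PIEZO partners and regulators showed 3 higher and 1 lower of the 6 tested, beside 22.6% higher and 24.1% lower over all genes tested. Mdfic, which encodes a protein that binds the PIEZO pore and slows its inactivation, fell from 32.2 ± 0.33 to 25.3 ± 1.89 FPKM (a difference of -0.35 on the log2 scale, limma adjusted p = 0.00130), in the same direction as Piezo1. Its relative Mdfi, first described as an inhibitor of MyoD proteins, was listed at 0 in CON replicate 3 and averaged 0.0388 FPKM in CON and 0.127 FPKM in 4H cells, too low to be tested. Stom, the gene of stomatin, a membrane protein that modulates channels, rose from 37.5 ± 0.80 to 49.5 ± 0.74 FPKM (0.40, adjusted p = 3.94e-05). Tmem120a, whose product was proposed as a channel or a channel modulator, rose from 31.0 ± 1.72 to 38.7 ± 1.37 FPKM (0.32, adjusted p = 0.00114). Stoml3, Tmem150c and Mdfic2 were listed at 0 in all 6 libraries.

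Of the 7 partners of TRP channels and polycystins, 2 rose and 5 did not pass, or 28.6% called against 46.7% of all genes tested. Homer1, a scaffold that joins TRPC channels to calcium release channels, rose from 5.44 ± 0.44 to 8.73 ± 0.96 FPKM (by 0.63 on the log2 scale, limma adjusted p = 0.000822). Sec63, a component of protein entry into the endoplasmic reticulum, rose from 28.9 ± 0.98 to 31.6 ± 0.92 FPKM (0.13, adjusted p = 0.0389).

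Most other channels of these families were near or at 0. Of the 23 other TRP-superfamily channels, 20 had a mean below 1 FPKM, 6 were listed at 0 in all 6 libraries and 4 could be tested. Trpm4, a sodium-conducting channel opened by calcium, rose from 2.54 ± 0.30 to 3.47 ± 0.15 FPKM (by 0.39 on the log2 scale, limma adjusted p = 0.0122), and Mcoln1, a lysosomal calcium channel, fell from 22.8 ± 1.83 to 19.4 ± 1.24 FPKM (-0.22, adjusted p = 0.0312). Of the 14 genes of the TMEM63, TMC and LRRC8 families outside the 10, 6 could be tested and 2 rose, or 33.3% called against 46.7% of all genes tested. Lrrc8c, a subunit of the anion channel that opens with cell swelling, went from 5.61 ± 0.25 to 7.00 ± 0.15 FPKM (0.30, adjusted p = 0.00602), and Tmc6 from 7.29 ± 0.72 to 8.69 ± 0.17 FPKM (0.24, adjusted p = 0.0318). Tmc1 and Tmc2, the channel genes of hair cells, were listed at 0.

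Of the 18 tested genes of calmodulin, calcineurin with NFAT and calpains, 7 rose and 6 fell, beside 22.6% and 24.1% of all genes tested, with a median log2 fold change of 0.07. Among those that rose were the 3 listed genes of the classical calpains, proteases activated by calcium, Capn1, Capn2 and their small subunit Capns1. Capn2 was at 116.0 ± 3.00 FPKM in CON and 227.5 ± 1.24 FPKM in 4H cells (log2 difference 0.97 ± 0.03 SE, limma adjusted p = 1.37e-07), just under the threshold of 1, and Capn1 rose from 18.1 ± 0.97 to 29.0 ± 1.95 FPKM (0.66, adjusted p = 6.19e-05). The largest falls of the list were in Ppp3ca, a catalytic subunit of calcineurin, from 25.3 ± 1.59 to 17.8 ± 0.47 FPKM (-0.49, adjusted p = 0.000159), and Nfatc4, a transcription factor that calcineurin activates, from 1.86 ± 0.11 to 0.986 ± 0.14 FPKM (-0.67, adjusted p = 0.00203). The other genes of the list that fell were Ppp3cb (-0.39, limma adjusted p = 0.000318) and Ppp3cc (-0.21, 0.0418), the other catalytic subunits of calcineurin, Cabin1 (-0.25, 0.00182), a calcineurin inhibitor, and Nfatc3 (-0.14, 0.0332). Rcan2 (0.53, limma adjusted p = 0.0292) and Rcan3 (0.28, limma adjusted p = 0.0107), which encode regulators of calcineurin, rose, and Ppp3r1, Rcan1, Nfatc1 and Nfat5 did not pass.

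**Figure D4:**
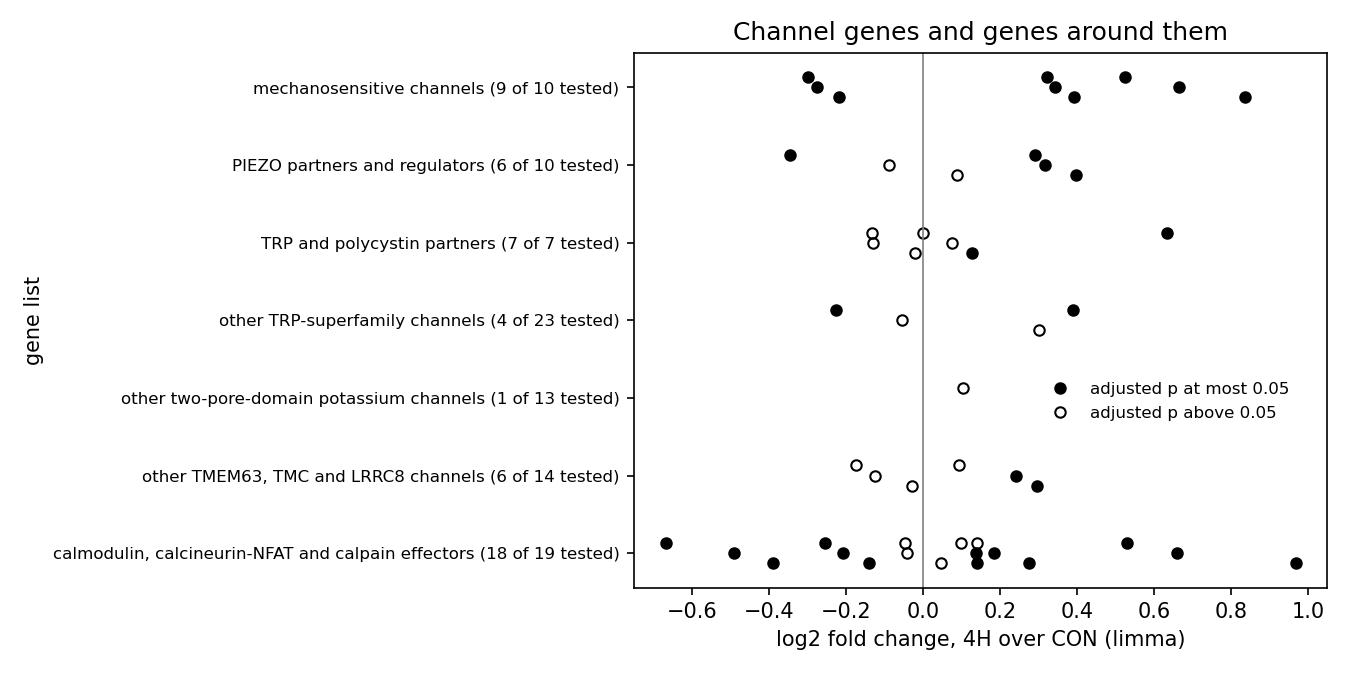
Log2 fold change (4H over CON, limma) of the tested genes in the list of channel genes and the 6 lists around it, filled where the adjusted p was at most 0.05. All 9 tested channel genes are filled, of which Trpc1 lost its call in 10 of 15 alternative fits, against 23 of the 42 tested genes of the other lists.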

How the data were processed

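RNA-seq of C2C12 cells was analysed from 3 CON and 3 4H libraries, grouped by the labels. Per the labels, libraries were strand-specific (dUTP), from poly(A) RNA, read from both ends. The deposited file is a single table in FPKM, computed by the authors, with a column for each library. The build mm10 is given in the submitters' processing notes, while the aligner, the counting tool and the gene annotation were not stated there. Of 22128 Ensembl identifiers, 22017 are in GENCODE M21 (GRCm38, the same assembly), which gave coordinates, overlaps of exons and the 75-base stretches that recur in other genes, of which the 10 genes had none except 34 of 4623 in Trpv2.

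Groups were compared, two-sided, by limma 3.58.1 (R 4.3.3, eBayes with a mean-variance trend) after log2(FPKM + 0.5), keeping genes that averaged 0.5 FPKM or more, with Benjamini-Hochberg adjustment over 11593 genes. DESeq2, which the study used, takes counts and was not run. The step was tested on simulated data. Alternatives were pseudocounts of 0.1 and 1, no filter, a filter at 1 FPKM, a replicate block, no trend, TPM, median-of-ratios scaling, quantile normalization and each library left out. All 10 genes are named. Other genes are named where they had the 2 largest rises or falls of a list at an adjusted p of at most 0.05 or were differentially expressed, and Pkd1, Mdfi and Mdfic in any case. Marker genes, Ctu2, Mrpl14, Kcnk4, Kcnk5, Kcnk10, Tmem63c, Tmc1, Tmc2, Capns1, Ppp3cb, Ppp3cc, Ppp3r1, Cabin1, Rcan1, Rcan2, Rcan3, Nfatc1, Nfatc3, Nfat5, Stoml3, Tmem150c and Mdfic2 are outside this rule, and like the motifs and the ratios of Tmem63a to Trpm7 and Tmem63b to Pkd2 they were picked with values in view. The genes and lists were chosen with earlier results of these data known. Python 3.11.15, pandas 2.3.3 and matplotlib 3.10.9 were used for tables and plots. Precision rests on 3 libraries per group, and no counting error is given.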

Additional observations from a re-analysis of the deposited data

How the results depend on the processing

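Under the 15 alternatives of the fit, 8 or 9 of the channel genes were called, 5 or 6 higher and 3 lower, and the one lost was Trpc1. The number of channel genes that were differentially expressed went from 0 to 1, Piezo2, with a pseudocount of 0.1 and with libraries rescaled to TPM (log2 fold change 1.15 and 1.09). Of all genes tested, between 4638 and 5565 were called. The number differentially expressed was 450, and over the alternatives it ranged from 347 with a pseudocount of 1 to 703 with TPM. It was 591 with a pseudocount of 0.1 and 414 with a filter at 1 FPKM. Because FPKM summed to at most 397260 in a library, TPM raises every value and so also lowers the effective pseudocount and filter, and its counts are no test of scaling alone. Among the other listed genes, the number called lower went from 8 to 5 with TPM and ranged from 5 to 7 with 1 library left out. The difference in response between Piezo1 and Piezo2 ranged from -1.20 to -1.09 with 1 library left out and was -1.46 with a pseudocount of 0.1 and -0.92 with a pseudocount of 1. That between Trpv2 and Trpv4 ranged from 0.06 to 0.40 with 1 library left out and was 0.04 with a pseudocount of 0.1. With a replicate block, 4964 genes were called in place of 5409 and 8 channel genes in place of 9 (Trpc1, adjusted p = 0.0960). The deviations of libraries with the same replicate number had correlations of 0.02, -0.09 and -0.13, which gave no sign of pairing by these numbers. By their titles, however, CON replicate 3 (C3) and 4H replicate 2 (4H3) share a number, and their correlation was 0.18, the highest between the groups. A block by title number was not fitted, so pairing by title was not tested. The search for relative depth could not have found a large difference between libraries, and the low level of Trpv4 and Piezo2 limits the precision of their values. Trpv4 could be fitted only without a filter and with TPM, and was not called (adjusted p 0.2425 and 0.2015).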
